A study of Mus musculus with 8 samples.

Results

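The cells described here were fibroblasts of the 16-week mouse thymus in which neither Dpp4 nor Pi16 mRNA was detected. A cell was taken when at least 4 of Pdgfra, Col1a1, Col1a2, Col3a1, Dcn and Lum were detected and when the UMIs (unique molecular identifiers, each a counted mRNA molecule) of these genes made up at least 0.3% of the cell and exceeded those of Epcam, Krt8, Krt18 and Krt5 together. Cells with 2 or more of the mural genes Rgs5, Notch3 and Kcnj8, or with any UMI of Dpp4 or Pi16, were left out. There were 932 such cells, of 1491 fibroblasts, 6677 cells at 16 weeks and 9953 cells in the whole series. They are called Dpp4/Pi16-negative fibroblasts below, and the 559 fibroblasts with a UMI of either gene are called positive.

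Thymic stroma of C57BL/6 mice aged 1 week or 16 weeks was profiled by CITE-seq, which reads mRNA and antibody-coupled oligonucleotides from the same cell. At each age, cells of several thymi were digested with enzymes, depleted of CD45+ cells, sorted as CD45- Ter119- cells with EpCAM1+ and EpCAM1- fractions, and loaded on 2 wells. The wells therefore repeat the measurement on 1 pool, so there was 1 sample per age, no test was possible, and all differences are descriptions. Intervals are 95% intervals that cover counting error only, and a difference was called when it reached 2-fold in the same direction in both wells. The sort makes the share of fibroblasts a property of the mixture loaded. The labels name the cells as thymic epithelial cells, but the members were selected here as fibroblasts from the whole sorted stroma.

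Fibroblasts make and remodel the collagen and elastic matrix of the thymus, and they supply growth factors, chemokines and retinoid enzymes to epithelium and developing thymocytes. Fibroblasts of the capsule and septa are commonly recognised by Dpp4, a cell surface peptidase, and Pi16, a peptidase inhibitor, while fibroblasts of the medulla largely lack them. The genes given as markers of the medullary type were Cxcl14, a chemokine, Sod3, an extracellular superoxide dismutase, Apod, a lipid-binding apolipoprotein, and Enpp2, the enzyme that makes lysophosphatidic acid. No label recorded where in the thymus a cell had been, so a medullary position was not tested and the cells are called by their rule.

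The surface of the same cells was read with 27 tags, each an antibody or lectin conjugate with a 15-base oligonucleotide whose count stands for bound reagent. The 5 tags below carry the protein differences described later, so their deposited barcodes are shown 5′ to 3′. No base is singled out, so all are in lower case.
CD49a: ccattcatttgtggc
CD54: ataaccgacacagtg
CD63: atccgacacgtatta
Podoplanin: gggcgatttagtgtg
CD9: tagcagtcactccta

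The negative fibroblasts made up 59.6% of fibroblasts in well 1 (248 cells, 95% exact binomial interval 54.7 to 64.4%) and 63.6% in well 2 (684 cells, 60.7 to 66.5%). They were 12.8% and 14.4% of all cells in the wells. Their median depth was 9141 and 9400 UMIs, below the 12949 and 10908 UMIs of positive fibroblasts. A cell with more UMIs had more chance of showing Dpp4 or Pi16, and the positive share of fibroblasts was 23.9% and 26.7% at 2000 to 5000 UMIs but 56.5% and 48.3% above 20000. For that reason the 2 classes were compared on cells paired within 10% of each other's UMI total. Of the members, 687 (73.7%) had all 6 fibroblast genes, 177 had 5 and 68 had 4. Around the 0.3% threshold, 27 cells lay between 0.2% and 0.3% (median 0.249%) and 21 between 0.3% and 0.4% (median 0.353%), whereas the members' median was 1.78%. Over the 4 libraries, 15 barcodes were found in more than 1 library, 6 of them in both 16-week wells, and 0 of the members carried one.

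All 4 marker genes were present in the members, but none of them was particular to these cells. Enpp2 (chromosome 15, 54838901 to 54952892, minus strand, GRCm38) stood at 3169 CPM (counts per gene scaled to a fixed total of UMIs of the class) in well 1 and 2976 in well 2, and was detected in 96.4% and 97.4% of members. Apod (chromosome 16, 31296192 to 31314808, minus strand) stood at 1942 and 1922 CPM, in 89.9% and 88.6% of members. Sod3 (chromosome 5, 52363791 to 52371418, plus strand) stood at 752 and 847 CPM, in 73.4% and 78.4% of members. Cxcl14 (chromosome 13, 56288643 to 56296551, minus strand) stood at 484 and 431 CPM, in 33.9% and 36.7% of members, so most members showed no Cxcl14 UMI. All 4 genes were detected in 24.6% and 28.9% of members, and 3 of the 4 in 52.0% and 49.4%.

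For comparison, thymic epithelial cells of the same wells held 108 and 119 CPM of Enpp2, 64.9 and 67.4 of Apod, 26.4 and 26.5 of Sod3 and 22.7 and 24.9 of Cxcl14. The part of free RNA in these epithelial values was not tested. The median depth of the epithelial cells was 6250 and 5631.5 UMIs. Endothelial cells were low for Cxcl14 (13.5 and 17.6 CPM) but not for Enpp2 (637 and 822 CPM). The levels in members were far above those in epithelial cells for each of the 4 genes.

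The mural part of the rule removed cells in which Enpp2, Sod3 and Apod were near their levels in members and Cxcl14 was lower. At 16 weeks 455 cells had 2 or more of Rgs5, Notch3 and Kcnj8, and 376 of them met the fibroblast part of the rule. The 288 of these without Dpp4 and Pi16 held 3673 and 3438 CPM of Enpp2, 1119 and 1095 of Sod3, 1710 and 1815 of Apod and 175 and 143 of Cxcl14. Their Rgs5, a pericyte gene, stood at 204 and 179 CPM, against 18.3 and 21.5 in members. The 79 mural-gene cells that did not meet the fibroblast part had 4886 and 6272 CPM of Rgs5, and only 728 and 608 of Enpp2, 87.2 and 69.9 of Apod and 7.59 and 9.65 of Cxcl14. The 288 cells were deeper than the members, with a median of 15225.5 and 12816.5 UMIs, and the part of depth in their mural genes was not tested. Notch3 and Kcnj8 levels in both fibroblast classes were cut by the rule.

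Positive fibroblasts with 1 UMI were near the negative ones in Enpp2 and Cd248, and those with 3 or more were not. Of the positive fibroblasts, 69 (41.1%) in well 1 and 189 (48.3%) in well 2 had exactly 1 UMI of Dpp4 and Pi16 together. From 0 to 1, 2 and 3 or more UMIs, Enpp2 was 3169, 3203, 2024 and 690 CPM in well 1. In well 2 it was 2976, 2478, 2629 and 507. Cd248 (endosialin, a stromal surface protein) went the other way, from 52.1 to 66.3, 74.4 and 709 CPM in well 1 and from 44.9 to 68.6, 52.3 and 508 in well 2. Fndc1, a fibronectin-domain protein, was 7.95, 12.4, 69.1 and 507 CPM in well 1 and 6.52, 27.5, 28.5 and 397 in well 2. Cells with 1 UMI already differed from negative ones in some genes, with Gpc3 at 28.1 against 5.56 CPM in well 1 and 44.1 against 5.30 in well 2. In both wells the largest step in Cd248 and Enpp2 lay between 2 UMIs and 3 or more. Cells with both Dpp4 and Pi16 (60 and 106) had 196 and 276 CPM of Enpp2 and 23.0 and 13.0 of Cxcl14. In epithelial cells Pi16 was seen in 20.9% and 19.4% of cells, and in 5.90% and 6.4% when each cell was thinned to 2000 UMIs. The part of free RNA in the 1-UMI class was not tested, so each contrast below is given against positive cells with 1 or more UMIs, as the rule sets it, and against those with 3 or more, a class chosen after seeing these values.

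**Figure D1:**
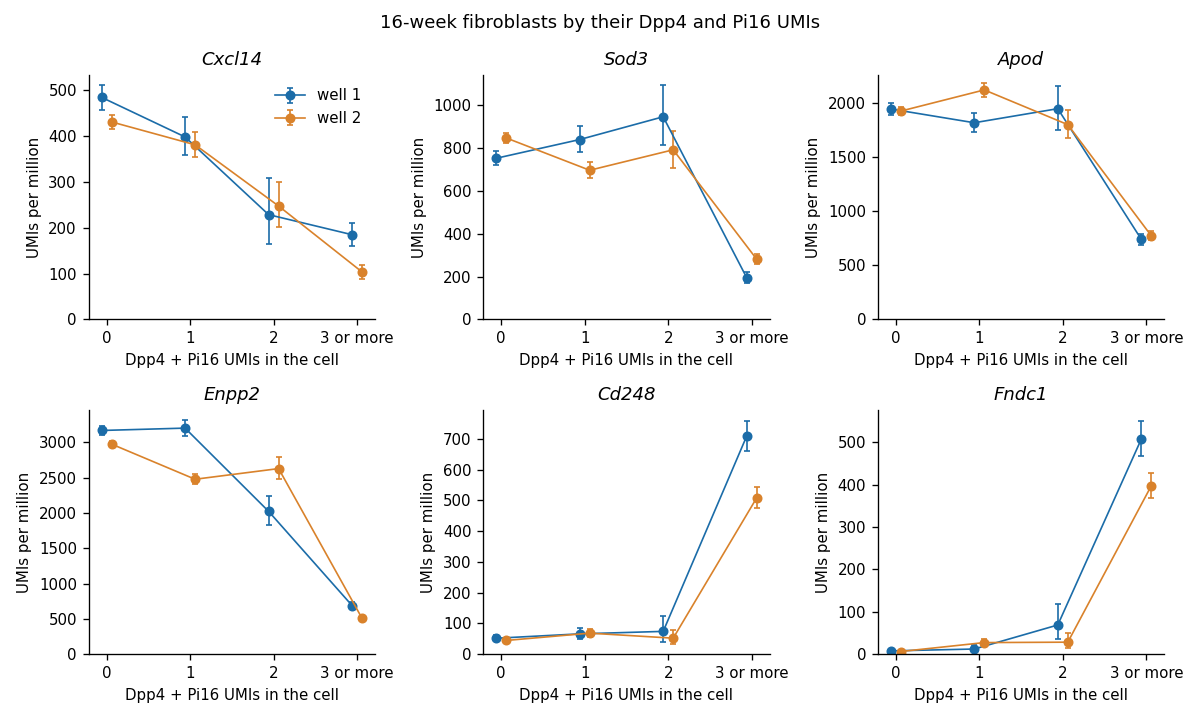
CPM of 6 genes (vertical axes) in 16-week fibroblasts by their number of Dpp4 and Pi16 UMIs (horizontal axis), for each well, with 95% Poisson intervals of counting error. Enpp2 falls from 3169 and 2976 CPM in cells with 0 UMIs to 690 and 507 in cells with 3 or more, while Cd248 goes from 52.1 and 44.9 to 709 and 508.

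Against all positive fibroblasts, the largest differences belonged to genes lower in negative cells, among them Ackr3, Sema3c and Pcsk6. There were 159 pairs in well 1 (median 12598 against 12691 UMIs) and 387 in well 2 (10778 against 10778). Of 11256 genes with at least 20 UMIs in each well, 37 (0.329%) were called higher in negative cells and 279 (2.48%) lower, and the median log2 difference was 0.02. The rule used this same contrast, so nothing is read from these shares. The 4 markers were higher in both wells but 0 of 4 reached the call. Cxcl14 stood at 494 against 263 CPM in well 1 and 511 against 254 in well 2, a log2 difference of 0.91 and 1.01. Enpp2 stood at 3386 against 1798 and 2945 against 1619 (log2 0.91 and 0.86). For Sod3 the values were 840 against 523 and 813 against 513 (log2 0.68 and 0.66), and for Apod 1996 against 1253 and 2013 against 1532 (log2 0.67 and 0.39). Positive cells therefore held all 4 markers too, at lower levels.

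The genes called lower with the largest mean log2 ratio were Mrgprg, Ackr3, Sema3c, Edn1, Pcsk6, Fndc1, Sema3d, Wt1, Hoxa5, Opcml, Gpc3 and Tmeff2. Ackr3 (chromosome 1, 90203980 to 90216751), a scavenging receptor for CXCL12, stood at 3.02 against 151 CPM in well 1 and 3.16 against 124 in well 2. Sema3c (chromosome 5, 17574281 to 17730268), a secreted semaphorin, stood at 5.04 against 265 and 5.58 against 180. Pcsk6, a proprotein convertase, stood at 5.54 against 211 and 3.64 against 117. Edn1, which encodes endothelin, stood at 1.01 against 81.3 and 2.67 against 60.4. Gpc3, a heparan sulfate proteoglycan, stood at 3.53 against 125 and 5.34 against 117. All of these were at a few CPM in negative cells of either well. Wt1, a transcription factor of mesothelium and its progeny, stood at 0.504 against 60.6 and 4.13 against 62.3.

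The 12 genes with the largest mean log2 ratio among those called higher differed by less. Slc7a11, the cystine transporter subunit, stood at 37.8 against 9.62 CPM and 21.8 against 6.497 (log2 1.92 and 1.71). Tnfsf8, the CD30 ligand, stood at 28.2 against 2.41 and 17.0 against 7.46, on 56 and 70 UMIs in negative cells. Adra2a, an adrenergic receptor, stood at 66.0 against 19.2 and 51.2 against 19.3 (log2 1.75 and 1.40). Cxcl9, a chemokine that binds CXCR3, stood at 86.1 against 41.4 and 154 against 59.0 (log2 1.05 and 1.38). Tagln, a smooth muscle actin-binding protein, stood at 89.2 against 36.1 and 115 against 50.5. The others were Pla2g7, Adgrl3, Col26a1, Colq, Lrrn3, Slc16a12 and Gm48565, with mean log2 ratios on the same side in both wells. Slc16a12, a monocarboxylate transporter family member, stood at 35.8 against 16.8 and 34.2 against 13.2. The higher calls were not stable under every setting. Under median of ratios scaling 35 of the 37 were called again, with the highest doublet scores left out 32, and on all cells, not matched in depth, 25. The same settings kept 279, 255 and 258 of the 279 lower genes. Of the 37, 8 were called with mural-gene cells kept, 8 with cells of any mural gene left out, 8 on cells thinned to 2000 UMIs and 15 on cells with at least 8000 UMIs, whereas 247, 179, 101 and 248 of the 279 lower genes were.

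By function, 6 of 10 compared genes of the capsular list were lower, with a median log2 ratio of -1.84 against 0.02 over all genes. Anxa3, an annexin, stood at 16.6 against 357 CPM in well 1 and 15.5 against 259 in well 2, and Fn1, fibronectin, at 39.8 against 593 and 53.7 against 525. Of the Wnt list 6 of 15 were lower and 0 higher, among them Sfrp2, a secreted Wnt modulator, at 34.3 against 280 and 16.0 against 174. Of the list of FGF, IGF and PDGF signalling 8 of 25 were lower, among them Igfbp5, an IGF-binding protein, at 78.1 against 856 and 87.9 against 1222. Elastic fibre and microfibril genes were lower in 6 of 22, with Mfap5 at 75.1 against 733 and 84.0 against 601. BMP and TGF-beta genes were lower in 7 of 21, matricellular genes in 6 of 21, and matrix proteases and their inhibitors in 5 of 26. Of the retinoid list 3 of 11 were lower, namely the retinaldehyde dehydrogenases Aldh1a1, Aldh1a2 and Aldh1a3. Aldh1a2 stood at 5.54 against 13.0 and 2.91 against 29.1. No gene of the lists of fibrillar collagens, MHC and interferon genes, lymphotoxin and NF-kB signalling, immediate early and heat shock genes or cell cycle genes was called. The median log2 ratio of the fibrillar collagens was still -0.52.

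Few list genes were higher. They were Tslp, a cytokine of the IL-7 family (93.7 against 36.6 and 82.1 against 39.5 CPM), and Cxcl9. Tslp was 1 of 16 genes of thymopoietic cytokines, cytokine receptors and Notch ligands, and Cxcl9 1 of 20 chemokine and chemokine receptor genes. Foxf1 was the 1 of 39 transcription factors called higher, on 22 and 31 UMIs in negative cells, against 5 called lower. Of the contractile list, Tagln and Des (desmin) were higher, with Des at 605 against 260 and 601 against 290. Of the mural list, 1 of 7, Kcnj8, was higher, and its level was cut by the rule.

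Markers of other cells moved with this contrast. The summed level of the 6 mesothelial markers was 17.6 and 33.3 CPM in negative cells and 152 and 243 in positive cells, and all 5 compared were called lower. Cells with 2 or more of Msln, Upk3b, Lrrn4, Wt1 and Krt19 were 1.21% and 1.32% of negative and 10.1% and 6.39% of positive fibroblasts. The 8 mural genes were higher in negative cells and summed to 315 and 351 against 213 and 219 CPM, the 8 endothelial genes to 165 and 193 against 122 and 169 although 2 of the 6 compared, Esam and Kdr, were called lower, and the 10 epithelial genes to 983 and 1305 against 1060 and 1296. With mesothelial-marked cells left out, 221 genes were called lower, 216 of them among the 279, and 23 higher, 19 of them among the 37. Cxcl14 then differed by 0.58 and 0.93 in log2 and Enpp2 by 0.77 and 0.76. With mural-gene cells kept in both classes, 275 genes were called lower, 247 of them among the 279, and 18 higher. Cxcl14 then differed by 0.49 and 0.55 and Enpp2 by 0.84 and 0.72.

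Against positive fibroblasts with 3 or more UMIs, genes were called in similar numbers in both directions. There were 85 pairs in well 1 (median 12986 against 12985 UMIs) and 161 in well 2 (11508 against 11525). Of 9624 genes, 364 (3.78%) were called higher in negative cells and 395 (4.1%) lower, with a median log2 ratio of 0.05. Of the genes called against all positive cells, 23 of the 37 higher and 239 of the 279 lower were called here too. All 4 markers were called higher. The class was chosen after Enpp2 and Cd248 were seen to differ in it, so nothing is read from these shares or calls. Cxcl14 stood at 606 against 191 CPM in well 1 and 419 against 103 in well 2 (log2 1.66 and 2.01). Enpp2 stood at 3412 against 710 and 2880 against 507 (log2 2.26 and 2.50). Sod3 stood at 890 against 194 and 820 against 281 (log2 2.19 and 1.54), and Apod at 2066 against 761 and 1639 against 772 (log2 1.44 and 1.09). Markers of other cells moved with this contrast. Of the mural list 3 of 6 compared, Notch3, Kcnj8 and Abcc9, were higher and 0 lower, with a median log2 ratio of 1.19, and their part in the other differences of this contrast was not tested. Notch3 stood at 38.1 against 1.76 and 26.2 against 4.87 CPM and Abcc9, a potassium channel subunit of pericytes, at 121 against 47.5 and 117 against 36.3. Of 10 contractile genes, Des and Itga1 were higher, with a list median of 0.87. Of the mesothelial list 1 of 2 compared, Wt1, was lower, at 0 against 103 and 7.63 against 120, and of the endothelial list the 1 compared, Plvap, was higher, at 122 against 36.9 and 142 against 52.0.

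Thymopoietic and chemokine genes were among those higher in negative cells. Of 14 genes of thymopoietic cytokines, cytokine receptors and Notch ligands 5 were higher, namely Flt3l, Il34, Tslp, Dll1 and Il1r1, and 1, Csf1, was lower. Flt3l, the ligand of the haematopoietic receptor FLT3, stood at 176 against 44.8 CPM in well 1 and 156 against 48.2 in well 2. Il34, a ligand of the CSF1 receptor, stood at 369 against 115 and 355 against 75.3, whereas Csf1, the other ligand of that receptor, stood at 101.9 against 224 and 87.2 against 216. Tslp stood at 105 against 22.0 and 82.9 against 25.5. Of 19 chemokine and chemokine receptor genes 4 were higher, the marker Cxcl14 among them, and 2 lower. Ccl19, a CCR7 ligand, stood at 355 against 143 and 475 against 147, and Cxcl9 at 130 against 37.8 and 215 against 26.0. Cx3cl1, the ligand of CX3CR1, stood at 68.3 against 23.7 and 69.8 against 30.3. Cxcl13, a CXCR5 ligand, was lower, at 10.6 against 176 and 11.4 against 94.8. Of 24 MHC and interferon genes, H2-K1, H2-D1, H2-Q7 and Tap1 were higher, with H2-D1 at 3292 against 1292 and 3122 against 1348. The class I genes are near copies of each other, so the split of their reads is uncertain.

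The matrix differed in both directions. Of 21 matricellular genes 4 were higher, Postn, Tnc, Sparcl1 and Spon1, and 7 were lower. Postn (periostin) stood at 2659 against 415 CPM in well 1 and 2492 against 336 in well 2, and Tnc (tenascin C) at 92.2 against 26.4 and 128 against 29.2. The collagen VI chains Col6a5 (291 against 47.5 and 287 against 23.3) and Col6a6 (360 against 65.9 and 325 against 49.8) were higher, and Col14a1, a fibril-associated collagen, was lower at 29.3 against 715 and 38.7 against 595. Elastic and microfibril genes were lower in 9 of 22, among them Eln, elastin, at 205 against 688 and 204 against 491, and higher in 2, the latent TGF-beta binding proteins Ltbp1 and Ltbp2. Of 26 proteases and inhibitors 3 were higher and 6 lower, and the metalloproteinase Mmp9 was among the higher, at 314 against 61.5 and 267 against 60.1. No fibrillar collagen was called, although the median log2 ratio of the list was -0.76 against 0.05 over all genes.

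Among signalling genes, 7 of 13 Wnt genes were lower and 0 higher, and of 24 genes of the FGF, IGF and PDGF list 10 were lower and 3 higher. The higher ones were Hgf, Igfbp7 and Ptn, with Ptn (pleiotrophin, a heparin-binding growth factor) at 4302 against 821 and 4051 against 586 CPM. Retinoid genes were lower in 4 of 9, Aldh1a1, Aldh1a3, Dhrs3 and Adh1. Of 20 lipid mediator genes 4 were higher, the markers Apod and Enpp2 with Apoe and Hsd11b1, and 5 lower. Apoe, a lipoprotein component, stood at 4157 against 1273 and 4151 against 987, and Hsd11b1, which regenerates active glucocorticoid, at 856 against 336 and 769 against 304. Of 34 transcription factors 5 were higher and 7 lower, and the homeobox gene Meox1 was among the higher, at 187 against 35.2 and 170 against 34.7. Itga1, the alpha subunit of the collagen-binding integrin read by the CD49a tag, stood at 338 against 53.6 and 338 against 42.2. The largest mean log2 ratios among those higher belonged to Slc16a12 (37.2 against 0 and 31.6 against 1.62 CPM) and Tnfsf8 (47.0 against 0 and 23.4 against 2.71). Among those lower they belonged to Pcsk6 (0.886 against 382 and 2.18 against 256) and Ackr3 (2.66 against 269 and 1.64 against 275).

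**Figure D2:**
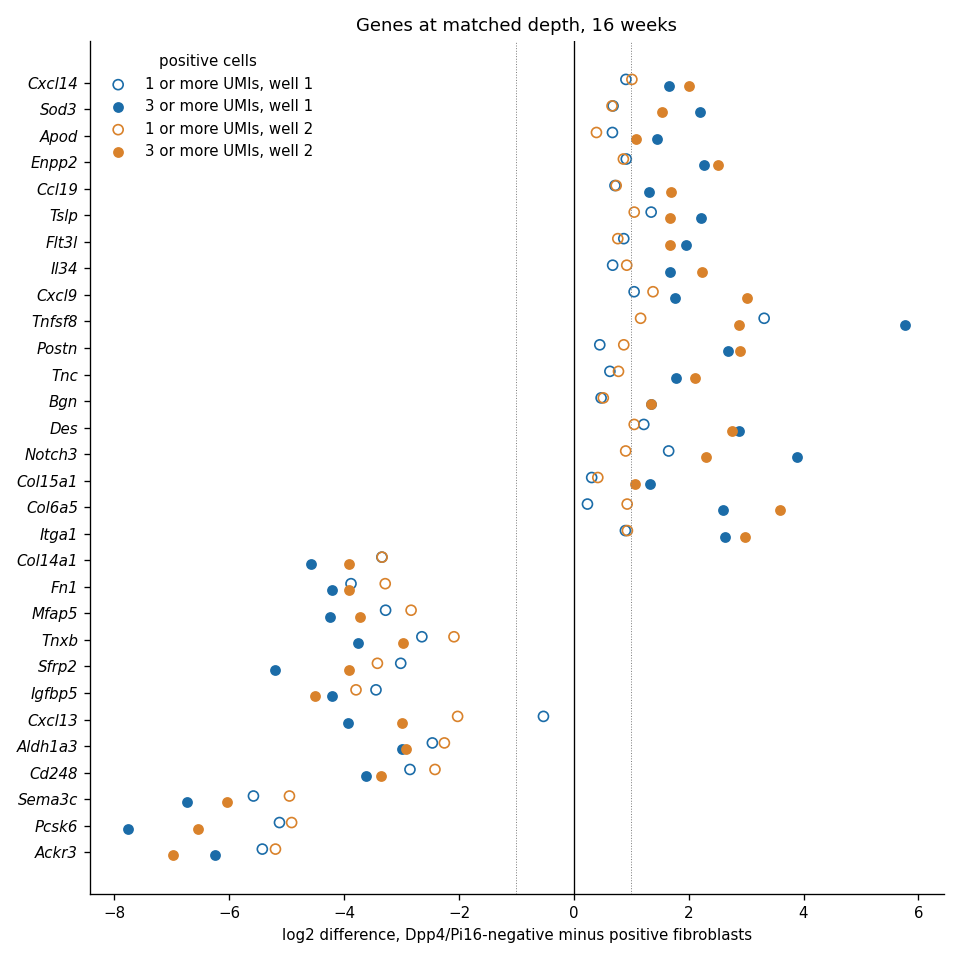
Log2 ratio of CPM, negative over positive fibroblasts, for 30 genes in depth-matched 16-week cells, with each well as a point. Open points use all positive cells and filled points positive cells with 3 or more UMIs, and the filled points of Enpp2 lie at 2.26 and 2.50 where its open points lie at 0.91 and 0.86.

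On the surface, negative fibroblasts bound more of a few antibodies. Values are means over cells of log2 of the tag count scaled to the cell's tag total plus 1, and a tag was called at a difference of 0.5 in the same direction in both wells. Against all positive cells 4 of 27 tags (14.8%) were higher and 0 (0%) lower. Of the 20 tags with the same sign in both wells, 14 were lower in negative cells with this scaling. On unscaled counts some of them turned sign, such as MHCII, from -0.38 and -0.41 to 0.20 and 0.11, and Sca1, from -0.30 and -0.19 to 0.34 and 0.32. Others, such as Ly6G/Ly6C (-0.05 and -0.18 unscaled), did not. CD49a stood at 8.41 against 6.37 in well 1 and 8.11 against 6.30 in well 2. CD54, the adhesion molecule ICAM-1, stood at 9.25 against 8.05 and 9.27 against 8.28. The tetraspanin CD63 stood at 6.49 against 5.61 and 6.19 against 5.48, and Podoplanin at 7.16 against 6.502 and 6.63 against 5.71. CD9, another tetraspanin, differed by 0.48 and 0.46, just under the call. On all cells, not matched in depth, CD63 differed by 0.77 and 0.43 and lost its call, and Epcam was called lower. Epithelial cells read 3.35 and 3.14 for CD49a and endothelial cells 6.80 and 6.62. CD31, an endothelial tag, was low in members, at 1.93 and 1.67. The median tag total was 357 and 267 counts in negative cells and 185 and 158 in positive ones, and the cause of this difference was not tested. On unscaled counts 6 tags were called higher and 0 lower, the 4 above with CD9 and CD270 (HVEM). With each cell's mean log count subtracted (centred log ratio), 5 were higher and 0 lower, the 4 above with CD9.

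For CD49a, CD63, CD9 and CD54, the mRNA and the tag both lay on the higher side in negative cells of each well. None of these mRNAs reached the 2-fold call, and the CD9 tag missed its call. The CD49a gene Itga1 differed by 0.90 and 0.93 in log2 and the tag by 2.04 and 1.81. Cd63 mRNA differed by 0.41 and 0.32 and its tag by 0.89 and 0.71, and Cd9 mRNA differed by 0.78 and 0.59. Icam1 mRNA differed by 0.17 and 0.20 while CD54 differed by 1.19 and 1.00. Pdpn mRNA differed by -0.03 and 0.03 while Podoplanin differed by 0.66 and 0.92. Against positive cells with 3 or more UMIs, 5 tags (18.5%) were higher, CD49a (3.63 and 2.92), CD54 (2.07 and 1.45), CD63 (1.33 and 1.08), Podoplanin (1.18 and 1.24) and CD9, and 6 (22.2%) were lower. The lower ones were CD274 (-0.93 and -0.57), Ly6G/Ly6C (-0.79 and -1.15), CD86 (-0.60 and -0.66), MHCII (-0.64 and -0.65), the lectin UEA1 read through SAV-PE (-1.01 and -1.0) and Epcam (-0.91 and -1.01). On unscaled counts 0 were lower and 6 higher, so no lower tag held without the scaling.

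**Figure D3:**
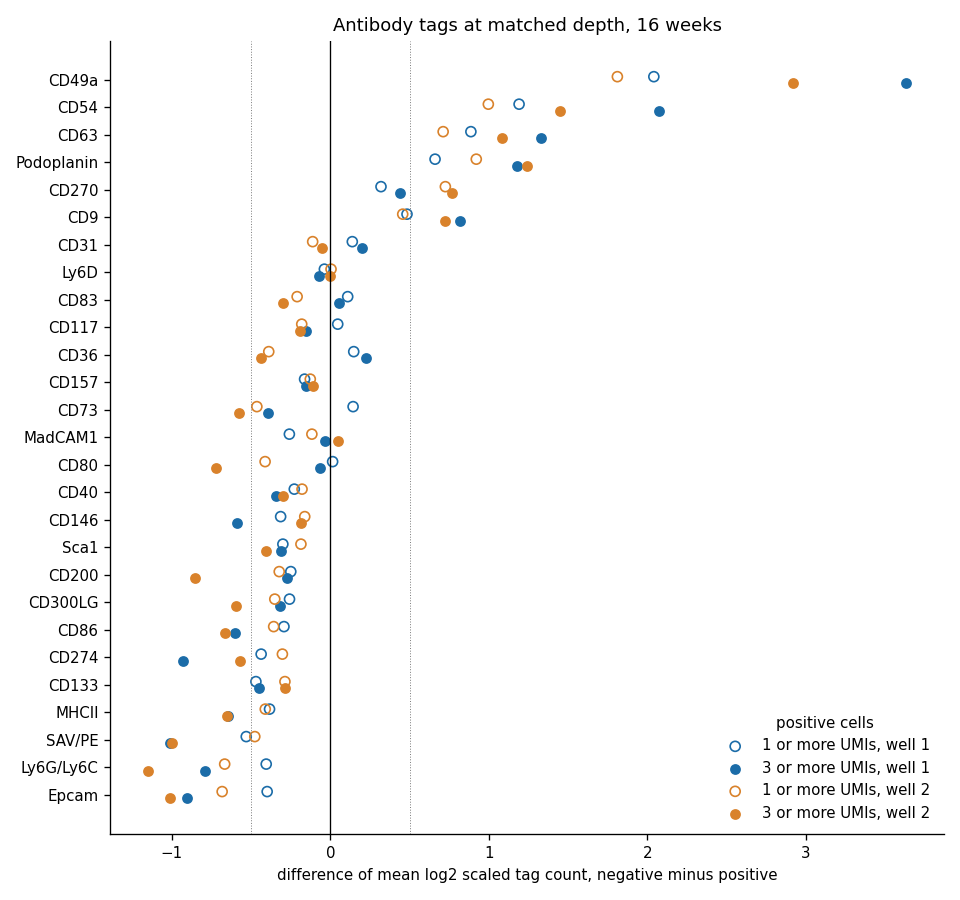
Difference in mean log2 scaled tag count, negative minus positive 16-week fibroblasts, for the 27 tags, with each well as a point. Open points use all positive cells, filled points those with 3 or more UMIs, and dotted lines mark 0.5 in either direction. CD49a lies farthest to the right in both wells, at 2.04 and 1.81 against all positive cells.

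The members were not uniform. Clustering of the 932 cells gave 7 groups, each with cells of both wells, which are called by number since no markers for types within fibroblasts had been set. The clusters were made from the mRNA of these same cells, so the gene values below are descriptions. Cxcl14 was high in cluster 1 (214 cells) and cluster 2 (104 cells), at 932 and 1086 CPM over both wells, and between 66.7 and 146 in the other 5. The wells differed in some of these, with Cxcl14 at 301 in well 1 and 71.3 in well 2 in cluster 3, 239 and 119 in cluster 7, and 7.13 and 95.1 in cluster 5. Sod3 was high in cluster 3 (157 cells) and cluster 6 (148 cells), at 1859 and 1132 CPM, and at 296 and 244 in clusters 1 and 2. The highest mean levels of the 2 markers thus lay in different clusters, although Sod3 was detected in 79.4% and 82.7% of the cells of clusters 1 and 2. Enpp2 ranged from 1231 CPM in cluster 5 to 3921 in cluster 6 and was detected in at least 80.4% of cells of each cluster.

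By fold over the other members, cluster 1 was led by Scara5, a ferritin receptor, followed by Cxcl14, Tenm4, Nrxn2, Fgf10 and Ly6c1. Cluster 2 was led by Cxcl1 and Cdkn1a, cluster 3 by Cxcl9 and Kcnip1, and cluster 6 by Rgs16, Kcnj8 and Atf3. Cxcl9 stood at 319 CPM in cluster 3 and at or below 101 in the others, and it was detected in 25.5% of the cells of cluster 3. Cluster 5 (43 cells) was led by Rtl3, Pcolce2, Inmt, Sfrp2, Col14a1 and Spon2. Of these, Pcolce2, Sfrp2, Col14a1 and Spon2 were called lower in members than in positive cells as a whole. Cluster 4 (215 cells) was shallow, with a median of 3397 UMIs, and was led by Tsix and unnamed transcripts. In cluster 7, 32 of 51 cells were among the highest doublet scores and Pecam1, an endothelial gene, was among the leading genes. Its 51 cells had the lowest Apod, 738 CPM. The Podoplanin tag was highest in cluster 1 (7.90 and 7.66) and lowest in cluster 3 in well 1 (6.12) and in cluster 5 in well 2 (4.62), and the CD49a tag was lowest in cluster 5 (6.53 and 5.62).

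**Figure D4:**
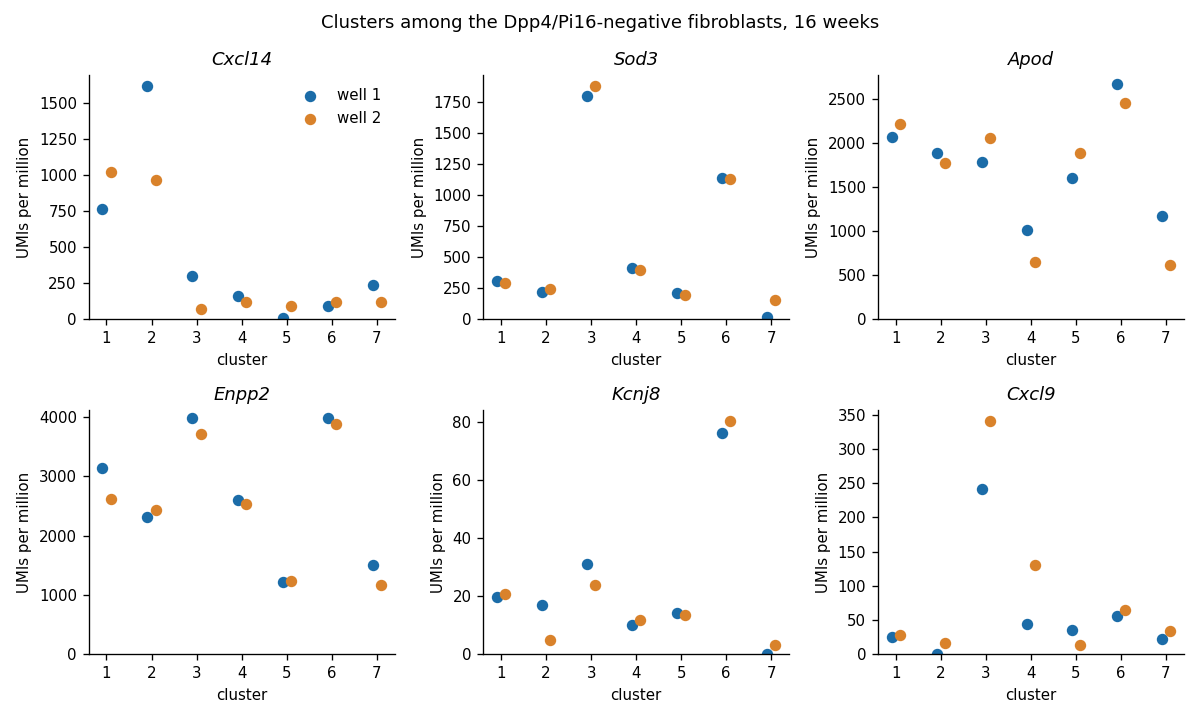
CPM of 6 genes in each of the 7 clusters of negative fibroblasts, with each well as a point. Cxcl14 is highest in clusters 1 and 2 (932 and 1086 CPM over both wells) and Sod3 in clusters 3 and 6 (1859 and 1132).

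The same rule found 155 cells at 1 week, 73 and 82 in the wells, or 46.5% and 53.2% of fibroblasts. They were shallower (median 6560 and 7432.5 UMIs) and had a larger mitochondrial share (3.54% and 4.28% against 2.11% and 2.36%). Age and pool cannot be told apart, and a gene was called when the lowest library of an age was 2-fold above the highest of the other. Of 14061 genes, 578 (4.11%) were higher at 16 weeks and 849 (6.04%) lower, with a median log2 ratio of -0.06. Because 1 count was added to each total, genes with few UMIs lean towards lower in this contrast, and among genes with at least 100 UMIs 427 were higher and 309 lower.

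All 4 markers were called higher at 16 weeks. Cxcl14 stood at 484 and 431 CPM against 8.42 and 1.83 at 1 week. Apod stood at 1942 and 1922 against 86.3 and 110, Sod3 at 752 and 847 against 39.0 and 129, and Enpp2 at 3169 and 2976 against 422 and 804. The 2 ages did not overlap for any of them. Other 1-week classes were low too, with Apod at 65.5 and 46.7 in positive fibroblasts and 174 and 170 in cells with mural genes, and Cxcl14 at 9.63 and 5.34 and at 4.03 and 1.65. The other genes with the largest folds were Mmp3, a matrix metalloproteinase, at 168 and 181 against 0 and 0.913, Hsd11b1 at 771 and 784 against 15.8 and 31.1, and Serpina3n, a serine protease inhibitor, at 182 and 167 against 10.5 and 2.74. Pla2g7 stood at 118 and 103 against 5.26 and 0, and Ifi205, an interferon-inducible gene with close paralogs, at 103 and 87.4 against 0 and 6.39. The heat shock gene Hspa1b (chromosome 17, 34956436 to 34959238, minus strand) stood at 2979 and 2646 against 83.2 and 155. Its near copy Hspa1a and the pseudogene Gm8696, next to Hspa1b on the same strand at 34954328 to 34954712, were higher too, and reads of these 3 cannot be firmly split. Of 23 immediate early and heat shock genes 3 were higher, Hspa1b, Hspa1a and Hsph1, and 3 lower, Egr2, Ier2 and Nr4a1. The part of cell handling in the age differences was not tested.

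Of the genes lower at 16 weeks, H19 (chromosome 7, 142575529 to 142578143, minus strand), an imprinted long non-coding RNA, had the largest fold, at 1.59 and 0.606 CPM against 1133 and 1040. Dlk1, an imprinted Notch-related protein, stood at 1.19 and 3.03 against 498 and 531, and Mest, also imprinted, at 1.19 and 2.42 against 348 and 228. Zim1 and Agtr2 were lower as well, but these 2 and Lrrn4 lost the call on cells thinned to 2000 UMIs, where 185 of the 578 higher and 238 of the 849 lower genes were called. On thinned cells their log2 ratios were still -4.8 (Zim1), -5.6 (Agtr2) and -3.6 (Lrrn4). Upk3b, Nkain4 and Lrrn4, which mesothelium expresses, completed the named genes, with Upk3b at 0.795 and 1.36 against 149 and 247. Cells with 2 or more mesothelial markers were 12.3% and 17.1% of negative fibroblasts at 1 week. Without them, Upk3b and Lrrn4 were no longer called while H19, Dlk1, Mest, Agtr2, Zim1 and Nkain4 were. Other cell markers moved with age too, with 6 of 6 mesothelial genes lower (median log2 ratio -4.69), 4 of 6 Schwann cell genes lower (median -2.42), and 3 of 10 epithelial genes higher and 4 lower. Krt5 stood at 78.3 and 115 against 12.6 and 19.2, and Krt8 at 138 and 181 against 713 and 628. The part of the Schwann and epithelial markers in the age differences was not tested.

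By function, 10 of 13 cell cycle genes were lower at 16 weeks and 0 higher, with Mki67 at 7.15 and 6.36 against 108 and 82.2 CPM. Of 6 fibrillar collagens 4 were lower, with Col1a1 at 972 and 942 against 4692 and 5264 and Col3a1 at 2267 and 2260 against 7625 and 7091. Both, and Col1a2, were among the genes the rule used to choose the cells at each age, while the other, Col5a1 (245 and 211 against 674 and 624), was not. Complement genes were higher in 7 of 15 and lower in 0, with C3 at 5088 and 4889 against 337 and 551. Thymopoietic cytokines, cytokine receptors and Notch ligands were higher in 3 of 16, Flt3l, Il34 and Tslp, and lower in 1, Dll4, with Flt3l at 178 and 164 against 14.7 and 17.4. Of 24 MHC and interferon genes 5 were higher and 1 lower, and of 23 lipid mediator genes 7 were higher and 2 lower. The markers Apod and Enpp2 were among the 7. Chemokine and chemokine receptor genes were split, with 5 of 21 higher, the marker Cxcl14 among them, and 5 lower. Ccl19 was higher at 359 and 403 against 43.2 and 139, and Cxcl1 lower at 97.4 and 139 against 421 and 449. Postn stood at 2336 and 2626 against 1074 and 1055. Ptn was close at the 2 ages, at 3887 and 3779 against 4042 and 3327.

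**Figure D5:**
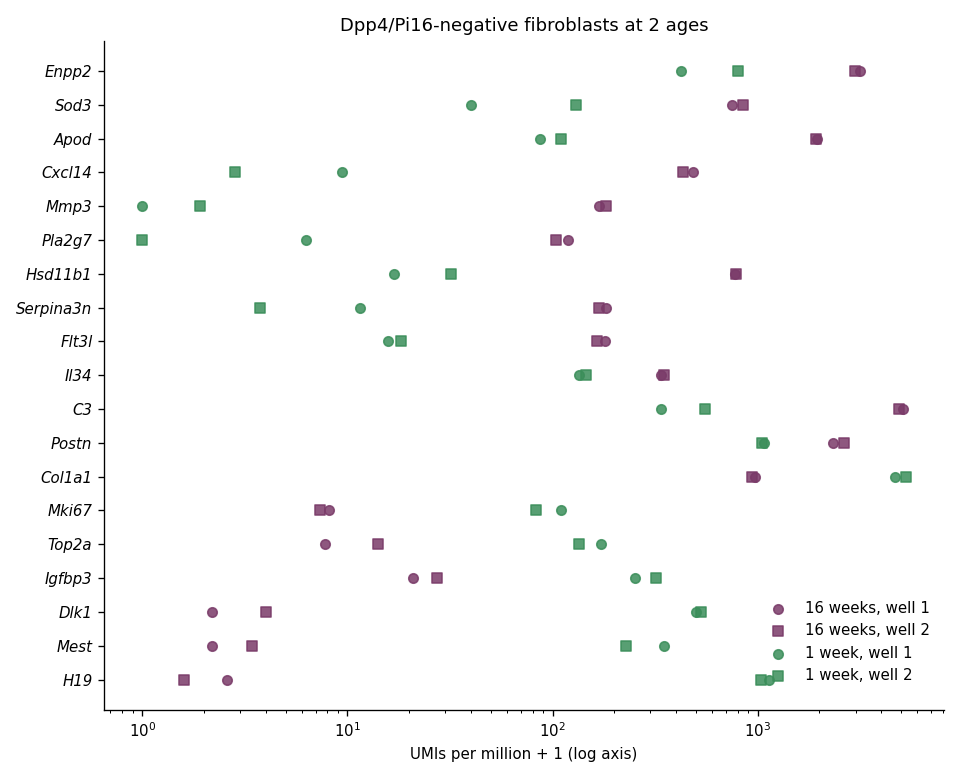
CPM plus 1, on a log axis, of 19 genes in negative fibroblasts of the 4 libraries, 2 wells at 1 week and 2 at 16 weeks. Cxcl14 lies at 484 and 431 at 16 weeks and at 8.42 and 1.83 at 1 week, while H19 lies at 1.59 and 0.606 and at 1133 and 1040.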

How the data were processed

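Per the labels and methods, the authors aligned the reads with STARsolo 2.7.9a to mm10 and counted genes of an Ensembl annotation, and they deposited whole-number UMI counts per gene and cell and tag counts per cell. The labels name another version of the 3′ kit than the methods. Each deposited cell had at least 2000 UMIs, and libraries held 21281389 to 45480790 UMIs. Gene names and GRCm38 positions came from GENCODE. Counts were summed over the cells of a class in each well and given as CPM. Members and positive cells were paired within 10% of UMIs, genes had at least 20 UMIs in each well, and 1 count was added. A gene was called at 2-fold in both wells, and the 12 called genes per direction with at least 100 UMIs and the largest mean log2 ratio are named (8 for age). The largest genes against cells with 3 or more UMIs were ranked alike. Genes chosen as list examples were picked after their values were seen. Members, markers and lists were chosen with earlier results of these data known. The libraries are 1 pool per age, so no p-value was computed. Clustering used 1000 variable genes, 15 components, 15 neighbours and Leiden resolution 0.5. Scrublet's automatic threshold marked 0 to 5 cells per library and was not used. No cell was removed as a doublet, and an alternative left out the highest scores at a rate of 0.8% per 1000 cells. Scripts were tested on simulated data. Versions were numpy 2.4.6, scipy 1.17.1, pandas 2.3.3 and scanpy 1.11.5. Results for some genes of the lists are not reported here.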

Additional observations from a re-analysis of the deposited data

How the results depend on the processing

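The counts of called genes depended on the threshold and on which cells were set against the members, more than on scaling. Against positive cells, the 37 genes called higher became 267 with positives of 2 or more UMIs, 364 with 3 or more, 596 with no minimum of UMIs, 289 at 1.5-fold, 2 at 3-fold, 23 with mesothelial-marked cells left out and 18 with mural-gene cells kept, and 216 to 265 on 1 well. The 279 called lower became 111 on cells thinned to 2000 UMIs, 575 with no minimum, 537 at 1.5-fold, 163 at 3-fold and 516 to 581 on 1 well. The 4 called tags became 11 with 2 or more or with 3 or more UMIs, 7 with the highest doublet scores left out, and 5 to 7 on 1 well. For age, the 578 higher became 241 on thinned cells, 235 at 3-fold and 621 to 1188 with a library left out, of which 1016 and 1188 came without a 1-week well. The 849 lower became 5572 with no minimum, 416 on thinned cells, 447 at 3-fold, 309 with at least 100 UMIs and 867 to 1127 with a library left out. The negative share of fibroblasts, 62.5%, was 59.6% and 63.6% on single wells. The 4 markers stayed higher in negative cells and at 16 weeks under each alternative run. Positives of 3 or more UMIs, cells of any mural gene, mesothelial-marked cells, mural-gene cells and the 100-UMI minimum were added after seeing the data. So was leaving out the members of clusters 4 and 7, with which 38 genes were called higher and 302 lower against positive cells. No paired analysis was possible because the well numbers link no samples across the ages and the results come from no test, while members and positive cells were compared within each well throughout. The causes were not tested.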
